A study of Mus musculus with 6 samples.

Results

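Ephrins, semaphorins and their receptors were followed as 1 group of 53 genes in cultured mouse neural stem cells with and without Smchd1. The group took every symbol of the Epha, Ephb, Efna, Efnb, Plxna, Plxnb, Plxnc, Plxnd and Sema families together with Nrp1 and Nrp2, and it held 14 Eph receptors, 8 ephrins, 2 neuropilins, 9 plexins and 20 semaphorins among 27179 gene records. The cells were derived from brains of male embryos at E14.5, strain C57BL/6 x FVB/N, and were kept dividing on laminin with EGF and bFGF. RNA was sequenced in 3 libraries labelled Smchd1 wild-type and in 3 labelled Smchd1MommeD1/MommeD1, which carry MommeD1 on both copies of Smchd1 and are called null. Both groups share the strain, the sex and the culture medium, and nothing in the labels says whether replicates came from separate embryos or from repeated cultures of 1 line, so the spread between them may be technical.

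Smchd1 encodes an SMC-type chromatin protein with a part in X inactivation and in the silencing of some imprinted and clustered genes. Eph receptors are receptor tyrosine kinases that bind ephrins on neighbouring cells, and the signal runs both ways, into the cell with the receptor and into the cell with the ephrin. A-type ephrins are held on the membrane by a lipid anchor and mostly bind EphA receptors, while B-type ephrins cross the membrane and mostly bind EphB receptors. Semaphorins are secreted, membrane-spanning or lipid-anchored cues that act through plexins, and most secreted ones of class 3 first bind a neuropilin. In the developing brain these families steer axons, keep cell compartments apart and affect the position and division of progenitors.

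Libraries held 18608881 to 23253367 counts. In wild type replicate 3, here wild type 3, a single record without a symbol (Entrez 100861531) took 44.6% of the counts, against 2.11% to 5.90% in the other 5 libraries. After TMM scaling, a correction for such differences in composition, it held 10.1 M effective counts, and the other 5 held 21.3 to 25.8 M. It is also the only wild type library whose sample name falls among 11 to 14, like the 3 null libraries. Wild type 1 and 2 carry names from another number range, and the labels do not say what the numbers stand for. Smchd1 itself stood at 232 to 271 CPM (counts per M of effective depth) in wild type and at 27.9 to 31.1 CPM in null, so the targeted gene matched the label of every library.

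Plexins and semaphorins made up most of the guidance RNA of these cells. Levels between genes are given as RPKM, which is CPM per kilobase of the gene length in the deposited tables. Summed over the 53 genes, the level was 283.9, 263.5 and 265.1 RPKM in wild type 1 to 3. In null 1 to 3 it was 259.5, 257.8 and 262.1 RPKM, so every null sum lay below every wild type sum. The nearest sums were close, at 262.1 and 263.5 RPKM, and the sums were not tested. They weigh abundant genes most: Plxnb2 averaged 51.9 RPKM in wild type and 46.7 RPKM in null, and Sema6d 42.6 and 37.2 RPKM. Over the 47 tested genes the median log2 fold change was 0.03, with 25 above 0 and 22 below. Averaged over the 6 libraries, 4 genes reached 10 RPKM, 32 lay between 1 and 10 RPKM and 17 lay under 1 RPKM. The 4 were the plexins Plxnb2 and Plxna1 and the semaphorins Sema6d and Sema4b. Of the 53 genes, 47 had enough counts to be tested.

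**Figure D1:**
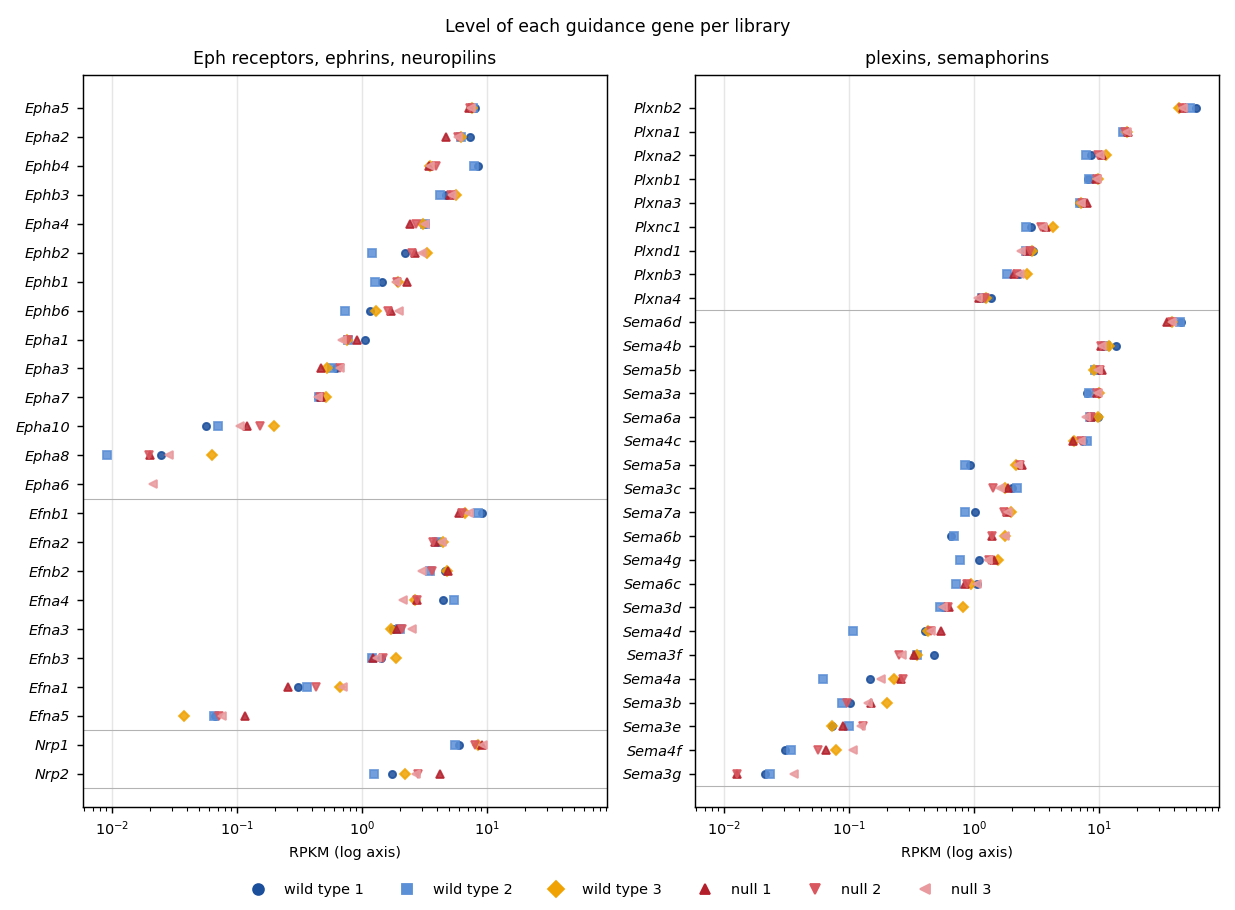
RPKM of each of the 53 guidance genes on a log axis, 1 symbol per library, ordered within each family by the mean of the 6 libraries. Values of 0 cannot be drawn on a log axis, so Epha6 is missing for 5 libraries and Sema3g for wild type 3. Plxnb2 and Sema6d lie farthest to the right, and wild type 1 and 2 stand apart from the other 4 libraries for Ephb4, Sema5a, Sema6b and Sema7a.

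No guidance gene passed the test between null and wild type. Of 47 tested, 0 were called higher, where 0.507% of all 14207 tested genes were called, and 0 lower, where 0.0704% were called (edgeR quasi-likelihood test, adjusted p threshold 0.05). limma-voom also called 0 in either direction, with a background of 0.732% higher and 0.162% lower. limma-voom with sample quality weights, which give less weight to libraries that stand apart, called 16 higher (34.0%, background 19.0%) and 8 lower (17.0%, background 17.4%). DESeq2 called Nrp2 higher and Ephb4 lower, 2.13% of the tested guidance genes each way against 1.27% and 1.56% of all tested genes. Before adjustment, 11 guidance genes (23.4%) had an edgeR p under 0.05, as did 18.6% of all tested genes. The median log2 fold change of the 47 was 0.03, against 0.0013 over all tested genes, with 25 genes above 0 and 22 below. Fitted changes ran from -0.90 for Ephb4 to 0.93 for Nrp2, and 10 of the 47 lay beyond 0.5 in size.

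Groups that did not overlap were about as common among guidance genes as among all tested genes. Ephb6, Nrp2, Sema4d and Sema5a were higher in every null library than in every wild type library, 8.51% of the 47 against 11.4% of all tested genes. Epha2, Epha5, Sema3f and Sema4b were lower in every null library, again 8.51%, against 10.6% of all tested genes. Both shares are close to the background and rest on few genes.

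The count of 0 was also found with other settings of the edgeR fit. It held with RLE scaling (background 0.514% higher and 0.0774% lower), without a filter (0.773% and 0.28%), with a stricter filter (0.537% and 0.0756%) and without robust moderation (0.5% and 0.0633%). It held without records above 1% of a library (0.511% and 0.07%) and with replicate number as a block (0.338% and 0.0422%). Leaving out wild type 1 (0.242% and 0.0276%), wild type 2 (0.291% and 0.0208%), null 1 (0.202% and 0.00695%), null 2 (0.272% and 0.0279%) or null 3 (0.23% and 0.00696%) gave 0 as well.

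Counts of calls depended on wild type 3. For 33 of the 47 (70.2%), wild type 3 lay nearer the null mean than the mean of wild type 1 and 2, and 69.3% of all tested genes did the same. Without wild type 3, 13 of 48 tested guidance genes were called higher in null (27.1%, background 19.7%) and 8 lower (16.7%, background 19.4%). With a term for the sample-name range beside genotype, 0 of 47 were called either way, against 0.542% of all tested genes higher and 0.767% lower, and the median of the 47 was -0.08. In this fit wild type 1 and 2 no longer bear on genotype, so every fold change given with the sample-name term sets 1 wild type library, wild type 3, against the 3 null libraries, and a lack of calls there says little. The fit of libraries 11 to 14 alone makes the same contrast and is no second check (0 of 50 called, background 0.853% higher and 1.69% lower). In the fit with the term the coefficient of the sample-name term, read out after the data had been seen, was called for 10 guidance genes higher in libraries 11 to 14 (21.3%, background 12.7%) and for 5 lower (10.6%, background 11.9%). That coefficient rests on wild type 3 alone, since no null library has a name from the other range. The comparison without wild type 3 shares wild type 1 and 2 with it, so these counts are not independent.

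**Figure D2:**
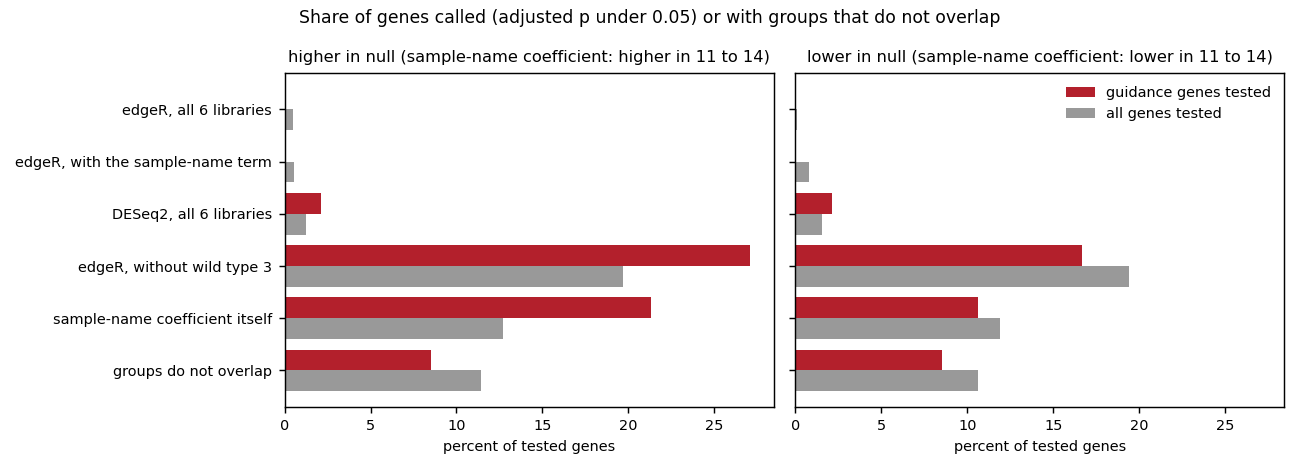
Percent of the tested guidance genes (red) and of all tested genes (grey) that were called at an adjusted p under 0.05, or whose groups did not overlap, by comparison and direction. For the sample-name coefficient the direction is that of libraries 11 to 14. Red bars are at 0 for edgeR on all 6 libraries and with the sample-name term, and reach 27.1% (higher) and 16.7% (lower) without wild type 3, where the grey bars reach 19.7% and 19.4%.

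Wild type 1 and 2 lay both below the other 4 libraries for 19 of the 47 guidance genes (40.4%, background 26.8%) and both above them for 9 (19.1%, background 26.1%), a count made after the data had been seen. Oligodendrocyte lineage markers differed along the same split, with 8 of 9 tested lower in wild type 1 and 2 than in the other 4 libraries, and so did markers of other cell types. Pdgfra, the receptor of oligodendrocyte precursors, stood at 17.1, 18.3 and 167 CPM in wild type 1 to 3 and at 112.6, 128 and 137.5 CPM in null 1 to 3. Sox10, a transcription factor of that lineage, stood at 0.54, 0.43 and 7.24 CPM in wild type and at 3.01, 3.75 and 3.39 CPM in null. Over the 9 markers of the list, 8 of which reached 1 CPM in some library, the sum was 1218 and 1122 CPM in wild type 1 and 2, 1610 CPM in wild type 3 and 1436 to 1517 CPM in null. The part of these cells in the values of guidance genes with the same split was not tested. In bulk RNA, more cells of a type and more RNA per cell cannot be told apart.

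**Figure D3:**
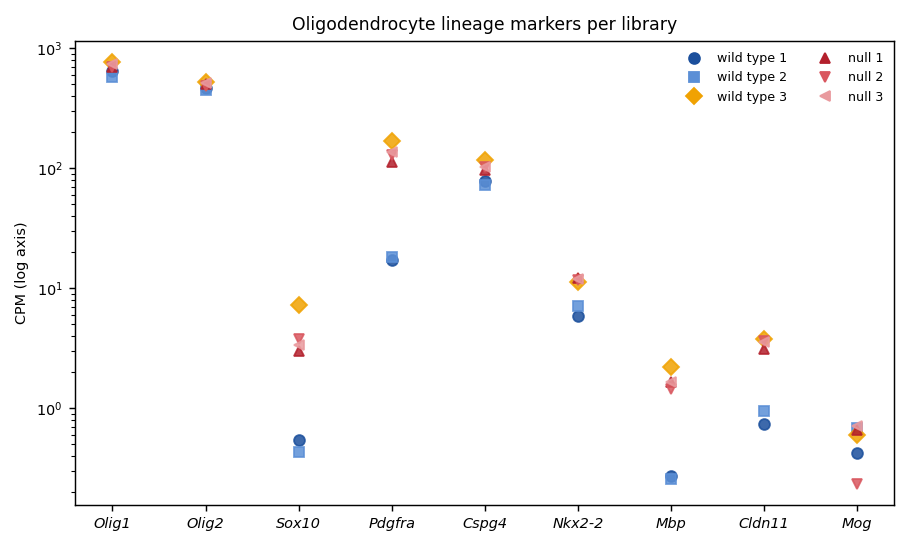
CPM of the 9 oligodendrocyte lineage markers on a log axis, 1 symbol per library. For Sox10, Pdgfra, Cspg4, Nkx2-2, Mbp and Cldn11, wild type 3 (orange) lies near or above the null libraries and wild type 1 and 2 lie lower.

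Neural stem cell markers were present. All 12 reached 1 CPM, among them Nes at 1154 to 1359 CPM, and their sum was 6135 to 6421 CPM in wild type and 6077 to 6233 CPM in null. The edgeR test called 0 of the 12, and 1 (8.33%) had an unadjusted p under 0.05. Of all tested genes, 0.507% were called higher, 0.0704% lower, and 18.6% had an unadjusted p under 0.05. Wild type 1 and 2 lay below the other 4 libraries for 4 of the 12 and above for 4. Over all tested genes these shares were 26.8% and 26.1%. The same backgrounds apply to the other marker lists. The 10 neuronal markers summed to 1485 to 1517 CPM in wild type and 1392 to 1431 CPM in null, with Stmn2 under 0.5 CPM in every library, and 1 of 9 tested rose: Nefl, a neurofilament subunit, at 0.54 to 0.89 CPM in wild type and 1.97 to 2.90 CPM in null (log2 fold change 1.89 ± 0.28, SE, adjusted p = 0.0228). Map2 and Gap43 carried most of this sum. Of the 9 tested, Dcx, Snap25, Elavl3 and Nefl were lower in wild type 1 and 2 than in the other 4 libraries (Dcx 0.81, 0.38 and 5.56 CPM in wild type and 3.195 to 4.15 CPM in null), and Map2, Rbfox3 and Syt1 were higher. The 6 astrocyte markers summed to 267.6 to 301.2 CPM and 226.3 to 229.2 CPM, with 0 called and 2 at an unadjusted p under 0.05. All 6 separated wild type 1 and 2 from the other 4 libraries. Gfap, Aqp4, Aldh1l1 and S100b were lower in wild type 1 and 2. Aldh1l1 stood at 36.3, 51.8 and 99.9 CPM in wild type and at 72.5 to 77.0 CPM in null. Gja1 and Glul, which carried much of the sum, were higher in wild type 1 and 2. The 7 endothelial markers summed to 2.58 to 3.798 CPM in wild type and 2.44 to 2.81 CPM in null, with Cdh5 at 0 in all 6 libraries. The 8 markers of mural cells and fibroblasts summed to 1.82 to 6.25 CPM and 3.61 to 4.275 CPM. The 6 microglial markers summed to 1.78 to 2.90 CPM and 1.93 to 2.48 CPM, with Tyrobp and C1qa at 0 in all 6.

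Among Eph receptors, 4 genes carried most of the RNA. By the mean of 6 libraries, Epha5 (7.56 RPKM) and Epha2 (6.01 RPKM) were the highest, followed by Ephb4 (5.10 RPKM) and Ephb3 (4.995 RPKM). These 4 took 22.0%, 17.5%, 14.9% and 14.55% of the summed receptor level. Their order differed by library. In wild type 1 and 2 Ephb4 was the highest, at 8.42 and 7.88 RPKM, against 8.06 and 7.69 RPKM for Epha5. In wild type 3 and the null libraries Ephb4 lay below Ephb3. Epha4, which binds ephrins of both types, and Ephb2, Ephb1 and Ephb6 followed at 2.97, 2.475, 1.78 and 1.41 RPKM. Epha1, Epha3, Epha7 and Epha10 lay at 0.825, 0.587, 0.462 and 0.1175 RPKM. Epha8 had 1 to 3 counts per library and Epha6 had 0 counts in 5 libraries and 2 in null 3. The 0 counts of Epha6 over the 3 wild type libraries allow a level of up to 0.0506 CPM, a limit of 3 counts over the group that covers counting error only. Of 12 receptors tested, 6 lay above 0 and 6 below, with a median log2 fold change of 0.01.

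Ephb4 had the most negative fitted change of the 47. It encodes the receptor that prefers ephrin-B2 and is best known from the split between arteries and veins (chromosome 5, 137350109 to 137374522, mm10). Ephb4 was measured at 36.7, 34.4 and 15.2 CPM in wild type 1 to 3 and at 14.9, 17.0 and 15.3 CPM in null 1 to 3. Wild type 3 lay inside the null range and wild type 1 and 2 far above it, so the groups overlapped. For Ephb4 edgeR fitted -0.90 ± 0.30 (log2 fold change ± SE, adjusted p = 0.218), and DESeq2 gave -0.88 with an adjusted p of 0.0404. Without wild type 3 it was -1.18 (adjusted p = 1.39e-08), and with the sample-name term 0.05 (adjusted p = 0.913). Of the 7 endothelial markers, Cdh5 was at 0 in every library, and the others did not share a direction. Emcn was highest in the same 2 libraries as Ephb4, at 1.55 and 0.98 CPM in wild type 1 and 2. It stood at 0.099 CPM in wild type 3 and 0.42 to 0.62 CPM in null. Vwf was lowest in wild type 1 and 2, at 0.39 and 0.21 CPM. It stood at 0.99 CPM in wild type 3 and 0.52 to 0.76 CPM in null. Pecam1, Tek and Esam showed neither split. These endothelial levels were low and rest on few reads, above all in wild type 3 at its lower depth. The part of endothelial cells in the Ephb4 values was not tested.

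Ephb6 stood apart from Ephb4. It encodes an EphB receptor whose kinase domain is inactive (chromosome 6, 41603834 to 41620509). Ephb6 stood at 4.34, 2.73 and 4.86 CPM in wild type and at 6.39, 6.04 and 7.45 CPM in null (counts of 49 to 167 per library), so every null library lay above every wild type library. Ephb6 gave a log2 fold change of 0.77 ± 0.22 (adjusted p = 0.164). It was 0.89 without wild type 3 (adjusted p = 0.000933) and 0.45 with the sample-name term (adjusted p = 0.52).

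The other receptors differed less or varied more among wild type libraries. Epha2, a receptor found on many dividing epithelial and progenitor cells, stood at 28.95, 24.1 and 24.4 CPM in wild type and at 18.4, 23.2 and 22.8 CPM in null, with a log2 fold change of -0.27 ± 0.12 (adjusted p = 0.26). Its groups did not overlap, and it was called without wild type 3 (-0.31, adjusted p = 0.0325). Epha5, which guides forebrain axons and had the highest mean level of the receptors, had a small fitted change. It had 62.75, 59.9 and 58.9 CPM in wild type and 56.2, 57.2 and 58.3 CPM in null, with a log2 fold change of -0.08 ± 0.06 (adjusted p = 0.482).

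Ephb2, an EphB receptor of axons and synapses, varied widely within wild type, at 10.5, 5.76 and 15.7 CPM, and the null libraries at 12.6, 11.99 and 14.4 CPM lay inside that range. Its log2 fold change was 0.34 ± 0.31 (adjusted p = 0.552), 0.67 without wild type 3 (adjusted p = 0.0541) and -0.27 with the sample-name term. Epha10, a second receptor without kinase activity, rested on few reads, with 8, 9 and 11 counts in wild type 1 to 3 and 14, 18 and 13 in null 1 to 3. Scaled to depth these were 0.31, 0.38 and 1.09 CPM in wild type and 0.66, 0.84 and 0.58 CPM in null. Epha10 gave a log2 fold change of 0.48 ± 0.46 (adjusted p = 0.566), 0.99 without wild type 3 (adjusted p = 0.0526) and -0.65 with the sample-name term.

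Ephrins were led by Efnb1, a B-type ephrin on the X chromosome (99136061 to 99149022) that marks compartment borders in several tissues. Its mean level was 7.28 RPKM, 32.1% of the summed ephrin level. Efna2 and Efnb2 followed, both at 4.06 RPKM, and could not be ranked within their spread. Efna4, Efna3, Efnb3 and Efna1 lay at 3.355, 2.00, 1.41 and 0.454 RPKM. Efna5, with 2 to 13 counts per library, was not tested. Of the 7 tested, 2 lay above 0 and 5 below, with a median log2 fold change of -0.12.

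Efna4 had the largest fitted change among ephrins. It encodes an A-type, lipid-anchored ephrin, and lies beside Efna3 and Efna1 on chromosome 3, with 10.45 kb between Efna3 and Efna4 and 32.95 kb between Efna1 and Efna3. Efna4 stood at 7.13, 8.61 and 4.27 CPM in wild type 1 to 3 and at 4.37, 4.36 and 3.39 CPM in null 1 to 3. Wild type 3 lay inside the null range. Efna4 gave a log2 fold change of -0.76 ± 0.24 (adjusted p = 0.194), -0.96 without wild type 3 (adjusted p = 9.57e-05) and -0.08 with the sample-name term (adjusted p = 0.932). Its neighbours did not show this split. Efna3 had 2.17, 2.47 and 2.08 CPM in wild type and 2.35, 2.58 and 3.08 CPM in null, and Efna1 had 11 to 14 counts in wild type and 9 to 26 in null.

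Efnb1 followed the same split by library at a smaller size. It stood at 29.8, 27.5 and 21.5 CPM in wild type and at 19.6, 20.6 and 23.3 CPM in null, with wild type 3 inside the null range. Its log2 fold change was -0.33 ± 0.13 (adjusted p = 0.234), -0.44 without wild type 3 (adjusted p = 0.000619) and -0.02 with the sample-name term. Efnb2, the ligand of EphB4, had 19.8, 15.2 and 20.5 CPM in wild type and 20.9, 15.65 and 13.1 CPM in null, and the groups overlapped. Efna2 had 8.80, 8.44 and 9.43 CPM in wild type and 8.18, 7.87 and 9.23 CPM in null, and its log2 fold change was -0.07 ± 0.12 (adjusted p = 0.749).

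**Figure D4:**
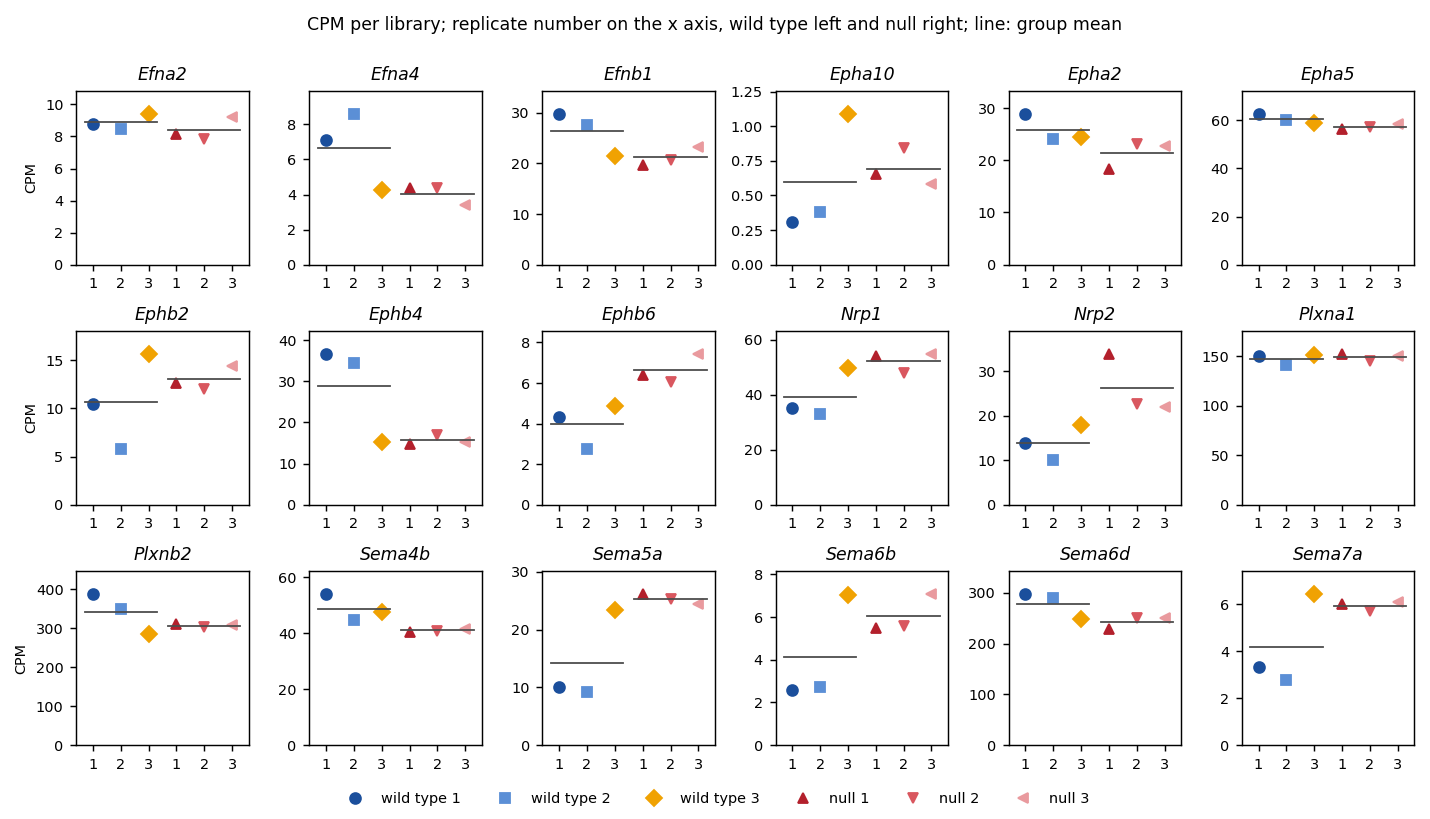
CPM of 18 guidance genes in each library, wild type replicates 1 to 3 on the left and null replicates 1 to 3 on the right of each panel, with a line at each group mean. Every y axis starts at 0. Wild type 3 (orange) lies at the level of the null libraries for Ephb4, Efna4, Nrp1, Sema5a, Sema6b and Sema7a, and between the groups for Nrp2.

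Both neuropilins, the binding receptors for class 3 semaphorins and for VEGF, were higher in null on average without passing the edgeR test. Nrp1 was the more abundant, at 7.73 RPKM against 2.48 RPKM for Nrp2. Nrp2 (chromosome 1, 62703317 to 62818692) stood at 13.99, 10.15 and 17.9 CPM in wild type and at 33.97, 22.7 and 22.1 CPM in null. All null libraries lay above all wild type libraries, and null 1 lay well above the other 2. Nrp2 gave a log2 fold change of 0.93 ± 0.24, the highest among the 47, with an adjusted p of 0.153. DESeq2 gave 0.92 (adjusted p = 0.00721), the fit without wild type 3 gave 1.11 (adjusted p = 0.045) and the fit with the sample-name term 0.55 ± 0.41 (adjusted p = 0.653).

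Nrp1 (chromosome 8, 128358591 to 128505476) stood at 35.2, 32.9 and 49.9 CPM in wild type and at 54.0, 47.8 and 55.0 CPM in null. Here wild type 3 lay inside the null range. The log2 fold change was 0.42 ± 0.15 (adjusted p = 0.219), 0.61 without wild type 3 (adjusted p = 7.08e-06) and 0.07 ± 0.10 with the sample-name term (adjusted p = 0.837).

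Promoter windows from RefSeq (GRCm38.p6, 250 bases before to 50 after the start) are shown for the 3 genes with the largest fitted changes, Nrp2, Ephb4 and Sema5a, and for Epha6, which had almost no reads. Capitals mark CpG dinucleotides, the sites of DNA methylation in mammals, and each sequence reads 5′ to 3′ on the strand of the gene. The windows are chr1:62703067-62703366 (plus strand), chr5:137349859-137350158 (plus), chr15:32244563-32244862 (plus) and chr16:60605482-60605781 (minus).
Nrp2: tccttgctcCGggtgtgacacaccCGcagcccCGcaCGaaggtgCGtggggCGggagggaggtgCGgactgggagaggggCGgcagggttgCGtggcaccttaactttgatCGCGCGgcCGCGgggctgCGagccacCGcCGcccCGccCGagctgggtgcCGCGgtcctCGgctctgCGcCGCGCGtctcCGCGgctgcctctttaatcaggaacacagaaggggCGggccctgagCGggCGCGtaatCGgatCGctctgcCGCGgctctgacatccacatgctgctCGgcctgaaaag
Ephb4: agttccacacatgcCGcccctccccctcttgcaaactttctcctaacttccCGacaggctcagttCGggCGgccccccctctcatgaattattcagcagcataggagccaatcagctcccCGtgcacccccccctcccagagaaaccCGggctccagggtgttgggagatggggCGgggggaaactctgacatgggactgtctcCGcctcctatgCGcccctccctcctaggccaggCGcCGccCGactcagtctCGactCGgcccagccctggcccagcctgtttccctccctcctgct
Sema5a: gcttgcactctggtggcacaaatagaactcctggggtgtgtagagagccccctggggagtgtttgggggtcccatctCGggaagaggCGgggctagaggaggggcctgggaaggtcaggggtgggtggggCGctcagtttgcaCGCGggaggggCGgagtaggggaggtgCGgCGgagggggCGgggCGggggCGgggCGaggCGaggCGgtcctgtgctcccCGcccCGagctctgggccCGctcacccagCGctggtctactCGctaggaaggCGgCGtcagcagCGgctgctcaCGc
Epha6: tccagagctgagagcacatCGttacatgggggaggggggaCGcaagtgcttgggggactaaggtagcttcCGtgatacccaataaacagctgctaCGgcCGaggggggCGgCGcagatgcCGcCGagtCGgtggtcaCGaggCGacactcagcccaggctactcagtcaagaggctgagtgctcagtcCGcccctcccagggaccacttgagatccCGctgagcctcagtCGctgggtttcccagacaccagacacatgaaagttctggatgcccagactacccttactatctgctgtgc
The Nrp2 window held 37 CpGs, that of Sema5a 23, that of Epha6 15 and that of Ephb4 14. RefSeq windows were found for 47 of the 53 genes, 61 windows in all (Efnb3, Plxna1, Plxna4, Sema3b, Sema3f and Sema6a had no entry). Their median was 20 CpGs and 64.0% GC, against 7 CpGs and 52.7% GC over all 32851 windows of the same length. At least 10 CpGs were present in 47 of the 61 windows (77.0%), against 43.5% of all windows. The GC box GGGCGG, searched on both strands, was present in 75.4%, against 35.7% of all windows. Epha8 held the most, with 56 CpGs, and Sema3a and one window of Sema4d the fewest, with 2. The Sema3a window starts at 13396534, inside a gene that starts at 13124822, and the Sema4d windows also lie inside their gene. These low counts therefore do not describe the outermost starts of the 2 genes. The set of all windows was not matched to the guidance genes for level.

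Plexins had the narrowest range of fitted changes among the 4 larger families. Plxnb2, the receptor of Sema4c and other class 4 semaphorins and needed for neural tube closure, was the most abundant guidance gene at 49.3 RPKM, 48.6% of the summed plexin level. Plxna1 followed at 16.5 RPKM, then Plxna2, Plxnb1 and Plxna3 at 9.75, 9.20 and 7.23 RPKM, and Plxnc1, Plxnd1, Plxnb3 and Plxna4 at 3.41, 2.71, 2.24 and 1.19 RPKM. All 9 plexins were tested, and the fitted changes ran from -0.16 to 0.18, with a median of 0.02 and no family member whose groups were separate. Summed over plexins the level was 109, 100.3 and 99.7 RPKM in wild type and 101.7, 98.55 and 99.7 RPKM in null.

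Plxnb2 (chromosome 15, 89155546 to 89182018) stood at 387.5, 349 and 285 CPM in wild type and at 309, 302 and 306.5 CPM in null. Wild type 3 was the lowest library of all 6. Its log2 fold change was -0.16 ± 0.11 (adjusted p = 0.425), -0.27 without wild type 3 (adjusted p = 0.000498) and 0.10 with the sample-name term (adjusted p = 0.556). Plxna1, a signalling partner of neuropilins and a receptor of Sema6d, was nearly level. It had 150.3, 141 and 151 CPM in wild type and 153, 145 and 151 CPM in null, and a log2 fold change of 0.02 ± 0.06 (adjusted p = 0.881).

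Several other plexins differed by sample-name range. Plxna2 stood at 95.5, 87.4 and 125 CPM in wild type and 117, 108 and 112 CPM in null, and Plxnc1, the receptor of Sema7a, at 19.9, 18.5 and 29.9 CPM and at 26.55, 24.3 and 25.2 CPM. In both, wild type 3 was the highest library. Plxnb1, the receptor of Sema4d, stood at 70.7, 72.0 and 84.5 CPM in wild type and 81.6, 83.1 and 82.9 CPM in null. The sample-name coefficient was 0.45 for Plxna2, 0.64 for Plxnc1, 0.24 for Plxnb1 and -0.37 for Plxnb2. It rests on wild type 3 alone, set against wild type 1 and 2. Plxnd1, the receptor of Sema3e, had 16.4 to 20.5 CPM over all 6 libraries.

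Semaphorins were led by Sema6d, a membrane-spanning class 6 semaphorin that can act as ligand and as receptor, at 39.9 RPKM and 41.3% of the summed semaphorin level. Sema4b (11.4 RPKM), Sema5b (9.77), Sema3a (9.20), Sema6a (8.82) and Sema4c (7.05 RPKM) formed the next group. Sema3a, the classical secreted repellent of axons, and Sema5b overlapped in RPKM over libraries and could not be ranked. Sema5a, Sema3c, Sema7a, Sema6b and Sema4g lay between 1.25 and 1.83 RPKM, and the other 9 under 1 RPKM. Of these, Sema3b, Sema3g and Sema4f were not tested, with 7 to 11, 0 to 3 and 4 to 12 counts per library. The 0 counts of Sema3g in wild type 3 allow up to 0.298 CPM. Of the 17 tested, 10 lay above 0 and 7 below, with a median log2 fold change of 0.11.

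Sema5a had the sample-name coefficient with the smallest adjusted p among guidance genes (1.28 ± 0.13, adjusted p = 8.04e-06). It encodes a membrane-spanning semaphorin with thrombospondin repeats (chromosome 15, 32244813 to 32696341). Sema5a stood at 10.1, 9.21 and 23.4 CPM in wild type 1 to 3 and at 26.2, 25.35 and 24.3 CPM in null 1 to 3. The groups did not overlap, but wild type 3 lay just under the lowest null library and far above wild type 1 and 2. Sema5a gave a log2 fold change of 0.90 ± 0.34 (adjusted p = 0.246), 1.39 without wild type 3 (adjusted p = 9.64e-09) and 0.11 ± 0.12 with the sample-name term (adjusted p = 0.748). Sema5b, its closest relative, stood at 41.6 to 44.4 CPM in wild type and at 44.3 to 48.4 CPM in null.

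Sema6b and Sema7a showed the same split. Sema6b, a class 6 semaphorin that binds plexin-A4, stood at 2.60, 2.73 and 7.045 CPM in wild type and at 5.50, 5.58 and 7.09 CPM in null. Sema6b gave a log2 fold change of 0.67 ± 0.37 (adjusted p = 0.348), 1.18 without wild type 3 (adjusted p = 4.06e-05) and -0.22 with the sample-name term. Sema7a, the lipid-anchored semaphorin, stood at 3.33, 2.77 and 6.45 CPM in wild type and at 6.01, 5.72 and 6.11 CPM in null. Its log2 fold change was 0.59 ± 0.28 (adjusted p = 0.293), 0.95 without wild type 3 (adjusted p = 0.000123) and -0.12 with the sample-name term. Wild type 3 lay inside the null range for Sema6b and above it for Sema7a.

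The 2 most abundant semaphorins had small fitted changes. Sema6d stood at 298, 290.4 and 248 CPM in wild type and at 229 CPM in null 1 and 250 CPM in null 2 and null 3, with wild type 3 inside the null range. Sema6d gave a log2 fold change of -0.20 ± 0.08 (adjusted p = 0.259), -0.28 without wild type 3 (adjusted p = 0.000359) and -0.03 with the sample-name term. Sema4b, a class 4 semaphorin, showed another order of libraries. It stood at 54.1, 44.8 and 47.7 CPM in wild type and at 40.6, 40.7 and 41.7 CPM in null, so the groups were separate and wild type 3 stayed among the wild type libraries. Sema4b gave a log2 fold change of -0.25 ± 0.08 (adjusted p = 0.201), -0.27 without wild type 3 (adjusted p = 0.00846) and -0.22 ± 0.11 with the sample-name term (adjusted p = 0.4).

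Fold changes of 18 guidance genes are plotted under 3 fits. With the sample-name term, the largest values in the direction of the fit without it were those of Nrp2 (0.55), Ephb6 (0.45), Sema4b (-0.22) and Epha2 (-0.18), and none of these passed.

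**Figure D5:**
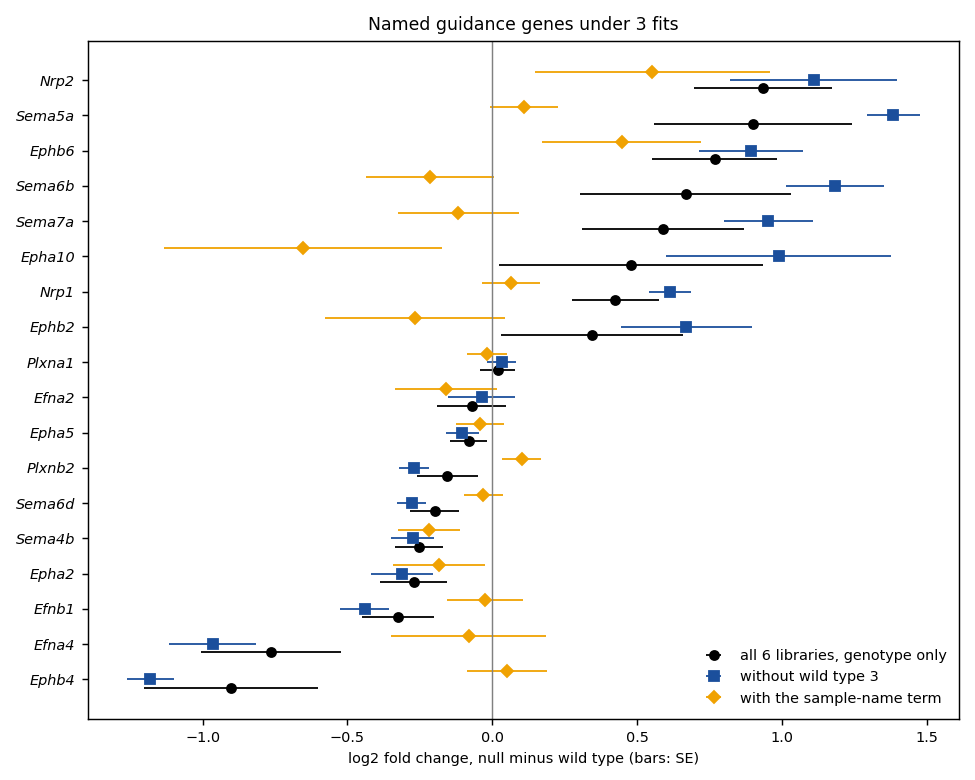
Log2 fold change, null minus wild type, of 18 guidance genes with SE bars, from edgeR on all 6 libraries (black), without wild type 3 (blue) and with the sample-name term (orange). Blue points lie farther from 0 than black ones for all of these genes except Efna2, and the orange points of Ephb4, Efna4, Sema5a and Nrp1 lie between -0.08 and 0.11.

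Ligands and receptors that are known to pair can be set side by side. Sema7a and Plxnc1 were both highest in wild type 3 (6.45 and 29.9 CPM) and lowest in wild type 2 (2.77 and 18.5 CPM). Both lay lower in wild type 1 and 2 than in the other 4 libraries, as did 26.8% of all tested genes. A link between ligand and receptor was not tested for any pair. For Ephb4 and Efnb2, the receptor was 36.7 and 34.4 CPM in wild type 1 and 2 and 14.9 to 17.0 CPM in the other 4 libraries, while the ligand ran from 13.1 to 20.9 CPM with no such split. Sema4c, the ligand of Plxnb2, had 24.1 to 30.6 CPM in wild type and 23.6 to 27.2 CPM in null. Sema6d and Plxna1 gave fitted changes of -0.20 and 0.02.

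Genes around these families were read in the same fit, which called 0.507% of all tested genes higher and 0.0704% lower. Of 22 tested genes of other guidance families (slits, robos, netrins and their receptors, repulsive guidance molecules and FLRT proteins), 0 rose and 0 fell, with 7 at an unadjusted p under 0.05 (31.8%, against 18.6% of all tested genes) and a median log2 fold change of 0.22. The smallest p values belonged to Ntn4, a laminin-related netrin (-0.37 ± 0.09, adjusted p = 0.129), and Dcc, the netrin receptor (0.33 ± 0.11, adjusted p = 0.194). Of 11 tested coreceptors and sheddases, 0 rose and 0 fell and 1 had an unadjusted p under 0.05 (9.09%), with Itgb1, the beta-1 integrin subunit, at -0.23 ± 0.07 (adjusted p = 0.189) and Itga1, an alpha subunit that pairs with it, at -0.30 ± 0.14 (adjusted p = 0.273). Of 37 tested effectors inside the cell, such as CRMP proteins and MICAL enzymes, 0 rose and 0 fell, with 11 at an unadjusted p under 0.05 (29.7%) and a median of -0.05. Pak1, a kinase activated by Rac, stood at 60.5, 50.2 and 74.0 CPM in wild type and 82.55, 85.4 and 87.0 CPM in the 3 null libraries (0.47 ± 0.12 on the log2 scale, adjusted p = 0.146). Mical2, an actin-oxidising enzyme of the family that binds plexins, gave -0.41 ± 0.12 (adjusted p = 0.179). Without wild type 3, against a background of 19.7% higher and 19.4% lower, 10 of 22 genes of other guidance families were called higher (45.5%) and 2 lower (9.09%). In that fit 4 of 12 coreceptors and sheddases were higher (33.3%) and 2 lower (16.7%), and 5 of 37 effectors were higher (13.5%) and 14 lower (37.8%). The sample-name term left 0, 0 and 1 higher and 0 lower, against 0.542% and 0.767% of all tested genes.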

How the data were processed

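RNA-seq gave 6 libraries. The authors deposited raw counts per Entrez gene with a gene length in bases (in a unit of its own, other than counts). The submitters' processing notes name mm10, featureCounts, limma 3.22.0, edgeR 3.8.2 and CASAVA 1.8.2; aligner and annotation were not given in the sources used here. The kit named in the labels' protocols does not mark strand, so overlapping antisense genes (Plxna4os1 at Plxna4) cannot be told apart.

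Symbols and coordinates came from RefSeq (GRCm38.p6, the same chromosomes as mm10) and matched 25275 of 27179 IDs (93.0%). Groups and replicate numbers came from the titles. Within groups, the 4 pairs of libraries without wild type 3 had a median chi-square per gene of 0.842 to 1.13, and the 2 pairs with it 3.24 and 3.315, where counting error alone gives 0.455.

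The main test was edgeR 4.0.16 (R 4.3.3): filterByExpr (14207 genes), TMM, a robust quasi-likelihood fit with genotype as the only term, a two-sided test and Benjamini-Hochberg adjustment over all tested genes, checked on simulated data. The check on simulated data does not measure the power of the test at the spread seen between these wild type libraries. It therefore does not bear on the lack of calls among guidance genes. Each SE is the size of the fold change over the square root of F. CPM and RPKM use TMM-scaled depth. Distances between libraries used log2(CPM + 0.5).

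Fold changes and tests are given for the 8 guidance genes with the smallest p, the 2 most abundant of each family by RPKM, and the 6 for which wild type 3 lay farthest from wild type 1 and 2, and for the 2 smallest p of each pathway list. Other genes are given by level, apart from the called marker Nefl and the sample-name coefficients of Plxna2, Plxnc1 and Plxnb1. Members and lists were chosen with earlier results of these data known, and 1 marker gene of the oligodendrocyte list is not reported here. Alternatives were DESeq2 1.42.0, limma-voom 3.58.1 with and without sample quality weights, another scaling, 2 other filters, no robust moderation, records above 1% left out, a replicate block, the sample-name term, libraries 11 to 14 alone, and each library left out. The sample-name coefficient and the counts of genes that separate wild type 1 and 2 from the other 4 libraries were added after seeing the data.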

Additional observations from a re-analysis of the deposited data

How the results depend on the processing

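The count of 82 genes called over all genes was 401 with DESeq2, 127 with limma-voom, 5168 with limma-voom and sample quality weights, 222 without a filter, 54 with the replicate block, 186 with the sample-name term and 376 in libraries 11 to 14 alone. Leaving out 1 library gave 30 to 5676 calls, the highest without wild type 3. Guidance genes called higher went from 0 to 1 with DESeq2, to 16 with quality weights and to 13 without wild type 3 (range 0 to 13 over the libraries left out). Those called lower went to 1, 8 and 8 (range 0 to 8). Other alternatives gave 0 in both directions, and the cause of the differences was not tested. The median of the tested guidance genes moved from 0.03 to -0.0819 with the sample-name term and to -0.067 in libraries 11 to 14 alone. The sample-name term and libraries 11 to 14 alone make 1 contrast, wild type 3 as the single wild type library against the 3 null libraries, assumed to vary like the others, so they are not separate evidence. Directions that turned in it, by the term and then by libraries 11 to 14 alone: Epha10 -0.65 and -0.65, Ephb2 -0.27 and -0.27, Ephb4 0.051 and 0.050, Plxna1 -0.018 and -0.0196, Plxnb2 0.10 and 0.10, Sema6b -0.22 and -0.22, Sema7a -0.12 and -0.12. Plxna1 also turned without wild type 2 (-0.015, the lowest of -0.015 to 0.038 over the libraries left out), and no turned value passed the test. For equal replicate numbers, deviations from the group means correlated at -0.01, 0.03 and -0.04. Wild type 3 stood apart within its group and weighs on these deviations, so the values cannot exclude a pairing of the libraries. The replicate block called 0 guidance genes, as did the fit without it. With library totals in place of TMM-scaled totals, the mean wild type level of Plxna1 was 15.0 RPKM instead of 16.4 RPKM. At its effective depth of 10.1 M counts, genes under about 1 CPM rest on few reads there.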
